A study of Glycine max with 36 samples.

Results

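Leaflets of soybean (Glycine max, cultivar Williams 82) sprayed with the herbicide bentazon were compared with leaflets sprayed with water 2 h after spraying. RNA of bentazon and RNA of water never shared an array at this time, and the comparison ran through RNA of atrazine-sprayed leaflets taken at the same time. Of the 36 cDNA arrays of the series, 3 paired water with atrazine and 3 paired atrazine with bentazon, 1 of each type for each of 3 replicates. In each replicate the effect was taken as minus the sum of the 2 log ratios with the same replicate number. The atrazine extract cancels in this sum if both arrays of a number used it. The probes with both ratios in at least 2 replicates numbered 17634 of 19200 on the array. All 3 replicates gave a summed value for 16234 of them and 2 replicates for 1400.

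Plants were about 2 weeks old, at the V1 stage, and grew in a greenhouse at 25 C with 16 h of day. Bentazon and atrazine were each applied as a mist at 22 to 25 mM, and the water spray held 1% Herbimax adjuvant by volume. The 3 leaflets of the primary trifoliate were pooled for each extract. The labels record adjuvant for water alone and 1 dose range for both herbicides, so adjuvant, dose and herbicide cannot be told apart in this comparison. They call the repeats biological without saying whether these came from separate sowings or days, and p-values measure only the spread between these samples. In RNA from whole leaflets, fewer cells of a type and less RNA per cell cannot be told apart. Ratios hold no levels, so the identity of the leaf tissue could not be checked against its markers.

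Bentazon and atrazine both block electron transport at photosystem II by occupying the site where plastoquinone binds. Light absorbed by the blocked photosystem leads to reactive oxygen species, which damage leaf cells. Plants clear herbicides by oxidation, by conjugation to sugars or glutathione through glycosyltransferases and glutathione transferases, and by export of the conjugates through ABC transporters, and soybean tolerates bentazon largely through hydroxylation followed by glucosylation.

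Each value is a log ratio taken as log2, of the RNA named first in the array's title over the RNA named last. Read in this way, a positive value is more signal from bentazon than from water. The labels do not say which channel is the numerator, and the other reading turns every sign together. The sides are therefore called positive and negative, and neither is stated to be higher expression. The estimates come from 1 linear model per probe over all 36 arrays, with a term for the dye, and are given as log2 units ± SE (n = 3 loops of arrays). A summed value holds the dye offset of both of its arrays and the model removes it. This would not hold if dye-swapped repeats were averaged into the deposited ratios, and their handling is not given. For the 42 genes named by the rule used here, the mean summed value and the estimate differed by 0.0124 to 0.472, with a median of 0.146. A probe is called when its limma adjusted p (Benjamini-Hochberg over 17062 tested probes) is under 0.05.

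The 6 arrays held 17298 to 18484 values each. Summed values of the replicates correlated across probes, which are not independent, with r of 0.589, 0.555 and 0.562. The water against atrazine arrays correlated with each other at 0.535, 0.330 and 0.412 and the atrazine against bentazon arrays at 0.505, 0.623 and 0.441. The 1 h against 2 h water arrays, which enter the model and not the sums, stood apart: their replicates correlated at 0.166, 0.102 and -0.292. Without them and without the dye term 1198 probes were called, of which 966 were among the 1293 called with them. Of the members, 17006 were tested and 628 were not, for want of values elsewhere in the loop, and 56 tested probes were not members. A gene was listed for 1059 of the tested members, and 778 of these, of 368 genes, had a name beyond a placeholder. Probes are cDNAs, and transcripts of related genes can bind to the same spot.

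At 2 h 1293 probes (7.58% of those tested) differed between bentazon and water, 809 on the positive side (4.74%) and 484 on the negative side (2.84%). All of them were members, and 1271 had summed values of 1 sign in every replicate that gave one. An estimate of at least 1 log2 unit was found for 1010 of the called probes (5.92% of those tested), and an unadjusted p under 0.05 was reached by 3417. The sides differed in size: 225 called probes lay at 2 log2 units or beyond on the positive side and 21 on the negative, 82 and 0 at 3 or beyond, and 29 and 0 at 4 or beyond. Estimates over all tested probes ran from -3.02 to 5.87 with a median of -0.05, and their median SE was 0.287. Without replicate 1, 308 probes were called, 81.8% of them on the positive side against 62.6% with all replicates, and 64 lay at 3 or beyond on the positive side and 0 on the negative. Without replicate 2, 621 probes were called.

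**Figure D1:**
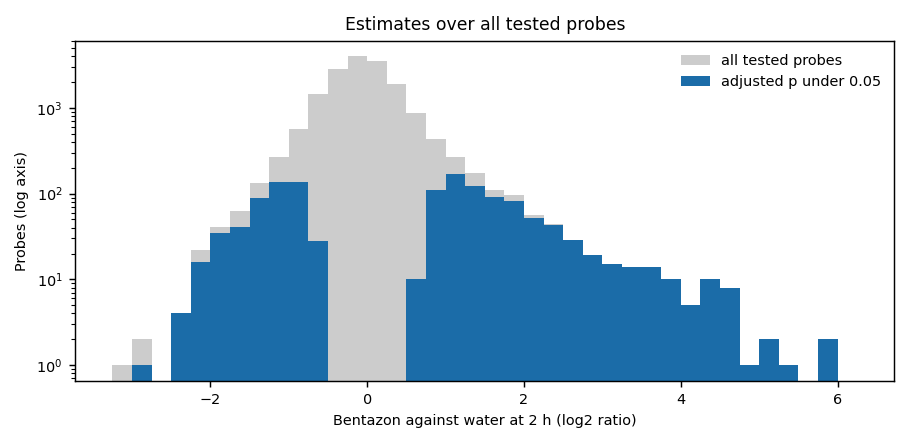
Histogram of the estimates of bentazon against water at 2 h (log2 ratio, x axis) over 17062 tested probes, with the number of probes on a log axis. Grey bars are all tested probes and blue bars the 1293 with an adjusted p under 0.05; beyond 3 log2 units all called probes lie on the positive side.

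Most of the called probes, 1192 of 1293, had no gene listed in the annotation. The largest estimate of all belonged to such a probe, Gm05344cDNA18kA, with summed values of 6.02, 6.41 and 5.78 and an estimate of 5.87 ± 0.587 (limma adjusted p = 5.31e-08). Probe Gm08679cDNA18kA stood at 5.34 ± 0.671, with sums of 6.14, 4.56 and 5.67. On the negative side probe Gm07291cDNA18kA gave sums of -3.05, -2.98 and -2.10 and an estimate of -2.92 ± 0.353. All 3 replicates of each of these probes lay on 1 side. Among the 780 tested probes with a name, 71 were called (9.10%), 47 positive and 24 negative.

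Genes of the ABC transporter and glutathione transferase lists held 4 of the 5 largest named estimates, all on the positive side. PDR12 encodes a pump of the pleiotropic drug resistance family of ABC transporters, plasma membrane proteins that move small molecules out of the cell. Its probe read -0.60, 0.54 and -0.12 on the 3 water against atrazine arrays and -6.42, -5.55 and -5.55 on the 3 atrazine against bentazon arrays, so its sums came almost wholly from the arrays that held bentazon RNA. The sums were 7.03, 5.004 and 5.67, and the estimate was 5.86 ± 0.587 (limma adjusted p = 5.31e-08), a 58.0-fold difference. The other arrays of the loop thus moved the estimate little from the mean sum of 5.90.

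Many glutathione transferases join glutathione to electrophilic compounds, an activity not measured here. Tested were 27 probes of 16 genes of this family. Of these, 5 probes of 4 genes were called, all on the positive side (18.5% of the list against 7.58% of all tested probes), and the list's median was 0.31 against -0.05. GSTL3, of the lambda class, gave sums of 5.29, 4.63 and 3.68 and an estimate of 4.41 ± 0.439 (limma adjusted p = 5.31e-08). GSTU30, of the plant-specific tau class, gave sums of 4.42, 3.68 and 3.36 and an estimate of 3.97 ± 0.531 (adjusted p = 5.59e-06). LOC548029 (GSTU59), also of the tau class, gave 4.54, 3.63 and 3.75 and an estimate of 3.68 ± 0.555 (adjusted p = 3.21e-05). In each of these 3 genes all replicates lay beyond 3 log2 units. GSTF5, of the phi class, was called with 2 of its 3 probes, at 2.22 ± 0.286 (sums 2.47, 2.48 and 2.68) and at 1.64 ± 0.338.

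The other glutathione transferase probes did not pass the test and lay between -0.76 and 1.21. Probes of a single gene did not always go together: the other GSTL3 probe stood at -0.18, and the other GSTU30 probes at 0.25 and -0.19. The 4 probes of LOC547581 (GSTU21) spread from -0.74 to 1.21. With replicate 1 left out 4 probes of the list were called, with replicate 2 left out 4 and with replicate 3 left out 5, each on the positive side. The calls of the leading probes of PDR12, GSTL3, GSTU30, LOC548029 (GSTU59) and GSTF5 were kept under every alternative run. The further GSTF5 probe stood at 1.70 without replicate 1 and at 1.39 without replicate 2, not called (limma adjusted p = 0.0817 and 0.0623).

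Glycosyltransferases attach sugars to hydroxylated compounds, and 2 of their 7 tested probes were called (28.6%, against 7.58% of all tested probes). Both were of UGT1, a UDP-glycosyltransferase. Its leading probe gave sums of 2.26, 0.99 and 1.05 and an estimate of 1.46 ± 0.321 (limma adjusted p = 0.00329). Replicate 1 was the highest, and without it the estimate was 1.102 and not called (adjusted p = 0.222). The further called UGT1 probe, at 0.99 ± 0.289, lost its call without each of replicates 1, 2 and 3 (0.88, 1.20 and 0.90, adjusted p = 0.292, 0.0854 and 0.104). All 4 UGT1 probes lay on the positive side, at 0.29 to 1.46. The cytochromes P450, the family that hydroxylates bentazon in plants, gave 0 calls among 22 probes of 8 genes in limma (4 at an unadjusted p under 0.05), with a median of -0.32 and a range of -1.30 to 0.81. The 8 genes on the array include those of isoflavone, triterpenoid and jasmonate synthesis. CYP83D1 stood at 0.41 and the 3 CYP97B2 probes at 0.11 to 0.33.

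**Figure D2:**
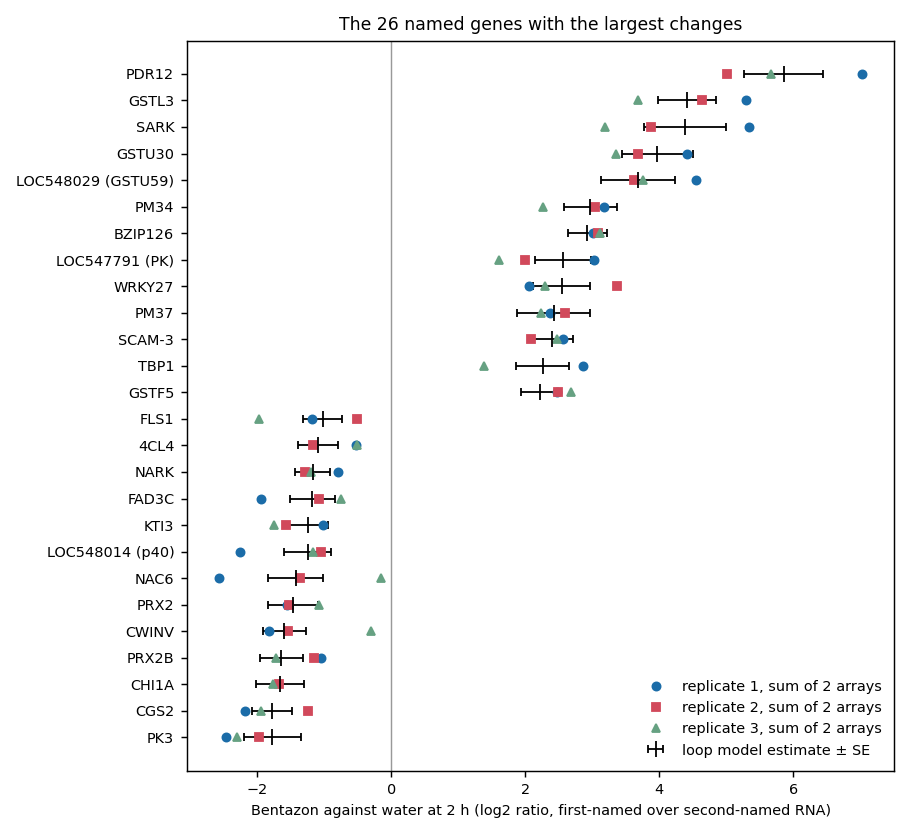
Bentazon against water at 2 h (log2 ratio, x axis) for the 26 named genes with the largest estimates, 13 on each side. Coloured points are the summed values of replicates 1 to 3 and black bars the model estimate ± SE; in every gene the points lie on 1 side of 0, and PDR12 lies between 5.004 and 7.03.

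Signalling genes were called on both sides. SARK, a receptor-like kinase associated with leaf senescence, gave sums of 5.35, 3.88 and 3.19 and an estimate of 4.39 ± 0.612 (limma adjusted p = 9.83e-06). Unlike PDR12, its probe also deviated on the water against atrazine arrays, at -2.58, -1.04 and -0.71. Its other probes stood at 0.02 and -0.84 and were not called. CDPK-GAMMA, a calcium-dependent protein kinase, gave 2.32, 2.00 and 1.95 and an estimate of 1.87 ± 0.360 (adjusted p = 0.000744). NARK, the receptor kinase that limits nodule number from the shoot, lay on the negative side with sums of -0.79, -1.28 and -1.19 and an estimate of -1.17 ± 0.261 (adjusted p = 0.00372). Of 13 protein kinase probes 2 were called positive and 1 negative (23.1%, against 7.58% of all tested probes), and the list's median was -0.07. Without replicate 1 CDPK-GAMMA stood at 1.71 (adjusted p = 0.0598) and NARK at -1.33 (0.0782), and without replicate 2 NARK stood at -0.99 (0.0970).

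Calmodulins, the calcium sensors, had called probes on both sides, and probes of a single gene did not always go together. Of 11 probes 2 were called positive and 2 negative (36.4%, against 7.58% of all tested probes), around a median of -0.29. With replicate 1, 2 or 3 left out the list held 1 call, on the positive side. SCAM-3 gave sums of 2.57, 2.09 and 2.47 and an estimate of 2.40 ± 0.312 (limma adjusted p = 5.07e-06), with all replicates above 2. SCAM-1 gave 2.11, 1.83 and 2.47 and an estimate of 2.15 ± 0.641 (adjusted p = 0.0333). SCAM-2 was on the negative side with sums of -0.48, -1.18 and -1.62 and an estimate of -0.86 ± 0.218 (adjusted p = 0.0111), and a further SCAM-2 probe was called at -0.84, a call also lost without each replicate (adjusted p = 0.260, 0.178 and 0.111). These genes encode nearly identical proteins, and how far their cDNAs bind each other's transcripts is not known. Other probes of the same genes were not called, at -1.10 for SCAM-1 and at -0.29 and 0.11 for SCAM-3. The calls of SCAM-1 and SCAM-2 were lost on leaving out any 1 replicate. Without replicates 1, 2 and 3 SCAM-1 stood at 2.22, 2.30 and 1.93 (adjusted p = 0.272, 0.0602 and 0.0652), and SCAM-2 at -1.09, -0.80 and -0.71 (0.0668, 0.182 and 0.109).

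Among 84 probes of 54 transcription factor genes, 5 were called positive and 3 negative (9.52%, near the 7.58% of all tested probes), and the median was -0.11. BZIP126, of the bZIP family, had the smallest SD over replicates among the 42 named probes, with sums of 3.01, 3.09 and 3.12 and an estimate of 2.93 ± 0.286 (limma adjusted p = 5.24e-08). The remaining BZIP126 probe was called on the other side, at -0.72 ± 0.199 (adjusted p = 0.0201), so the array does not give 1 direction for this gene. That call was lost without replicates 1, 2 and 3 (-0.79, -0.73 and -0.65, adjusted p = 0.186, 0.166 and 0.142). WRKY27, of a family known from stress and defence, gave 2.06, 3.37 and 2.29 and an estimate of 2.54 ± 0.431 (adjusted p = 0.000151). The other WRKY27 probe stood at 0.05 and was not called. SOYSTGA, a bZIP factor of the TGA type, gave 0.99, 1.17 and 2.06 and an estimate of 1.15 ± 0.300 (adjusted p = 0.0138). NAC2 stood at 1.41 and WRKY13 at 0.98, both called. Without replicates 1 and 2 in turn the calls of NAC2 (1.60 and 1.02, adjusted p = 0.107 and 0.309) and WRKY13 (1.09 and 0.72, 0.178 and 0.392) were lost.

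On the negative side NAC6 gave sums of -2.57, -1.37 and -0.15, a wide spread around its estimate of -1.43 ± 0.411 (limma adjusted p = 0.0273), and its other probe stood at -1.19 without a call. DREB1, of the dehydration-responsive element binding factors, gave -0.39, -0.25 and -0.57 and an estimate of -0.85 ± 0.225 (adjusted p = 0.0161). The DREB1 sums were smaller than the estimate, and the fitted dye offset of this probe was -0.22 ± 0.050. Without the dye term its call was lost. Without replicates 1, 2 and 3 DREB1 stood at -0.97, -0.81 and -0.76 (adjusted p = 0.115, 0.154 and 0.128) and SOYSTGA at 1.38, 1.18 and 0.90 (0.115, 0.0616 and 0.115). NAC6 stood at -0.89 without replicate 1 (0.368) and at -1.45 without replicate 2 (0.107). The calls of the leading BZIP126 probe and of the leading WRKY27 probe were kept without each replicate in turn.

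Seed maturation and chaperone probes were among the larger positive values. PM34, a seed maturation protein, gave sums of 3.18, 3.03 and 2.26 and an estimate of 2.97 ± 0.400 (limma adjusted p = 7.08e-06), and 3 other PM34 probes lay between -0.28 and 0.08 without a call. PM37, a seed maturation protein of the DnaJ chaperone type, was called with 3 of its 5 probes, at 2.42 ± 0.542, 2.32 ± 0.606 and 2.17 ± 0.609. The sums of its leading probe were 2.37, 2.59 and 2.24, and all 5 probes lay on the positive side. PM37 held every call among the 13 chaperone probes (23.1%, against 7.58% of all tested probes). Without replicate 1 its leading probe stood at 2.47 and was not called (adjusted p = 0.0769). Its other called probes then stood at 2.34 and 2.19 (0.138 and 0.167), so that all 3 calls of the list were lost. Without replicate 2 the list held 1 call, that of the leading probe. The BIP4 probes, for the chaperone of the endoplasmic reticulum, stood at 0.19 to 0.62 and those of CDC48 at -0.29 to 0.07, none called.

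Genes known from seeds and nodules were called in a leaflet sample as well. GY1, a glycinin seed storage protein, gave sums of 1.25, 1.29 and 1.11 and an estimate of 1.17 ± 0.246 (limma adjusted p = 0.00212), while CG-1, a beta-conglycinin, gave -0.68, -1.25 and -0.32 and an estimate of -0.86 ± 0.249 (adjusted p = 0.0280). GM2S-1, a 2S albumin, stood at 0.93 ± 0.248 (adjusted p = 0.0165). Other probes of these genes were not called. GY1 had 2 more, at -0.07 and 0.06, and GM2S-1 had 1 more, at -0.27. The 6 other CG-1 probes lay at -0.45 to 0.49, with 2 of them on the positive side. Of 18 seed storage probes 2 were called positive and 1 negative (16.7%, against 7.58% of all tested probes). Their median was -0.06, with a range of -0.86 to 1.17. ENOD40B, an early nodulin transcript, gave 2.06, 2.02 and 1.45 and an estimate of 1.90 ± 0.358 (adjusted p = 0.000533), and its other probe stood at -0.30. ENOD40B held the single call of the 5 nodulin probes (20%, against 7.58% of all tested probes). Without replicate 1 the calls of GY1 (1.0998, adjusted p = 0.108), CG-1 (-0.84, 0.329), GM2S-1 (1.20, 0.0911) and ENOD40B (1.76, 0.0724) were lost. Those of CG-1 (-0.59, 0.322) and GM2S-1 (0.75, 0.264) were also lost without replicate 2, and that of GM2S-1 without replicate 3 (0.83, 0.0647).

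A few further called genes belong to none of the groups above. LOC547791 (PK) gave sums of 3.02, 2.00 and 1.60 and an estimate of 2.56 ± 0.420 (limma adjusted p = 9.66e-05), with another probe at -0.65 that was not called. TBP1 had 2 summed values, 2.86 and 1.39, and an estimate of 2.26 ± 0.398, which without replicate 1 was 1.79 and not called (adjusted p = 0.159). Another TBP1 probe stood at 0.21 without a call. On the negative side PK3 gave -2.47, -1.98 and -2.30 and an estimate of -1.78 ± 0.424 (adjusted p = 0.00685). In PK3 most of the sum came from the water against atrazine arrays, at 1.80, 1.74 and 1.97. Other PK3 probes stood at -0.64 and 0.04 and were not called. LOC548014 (p40) gave -2.26, -1.04 and -1.17 and an estimate of -1.25 ± 0.351. Without replicate 1 PK3 stood at -1.65 (adjusted p = 0.127) and LOC548014 (p40) at -0.90 (0.360). PK3 stood at -1.53 without replicate 3 (0.116), and LOC548014 (p40) at -1.45 without replicate 2 (0.0818).

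The antioxidant enzymes gave 4 calls on the negative side among 24 probes (16.7%) and 0 on the positive in limma. An unadjusted p under 0.05 was reached by 7 and 1 probes. Of all tested probes 2.84% were called on the negative side and 4.74% on the positive. The list's median was -0.17. PRX2B, a peroxidase, was called with both of its probes, at -1.64 ± 0.324 (sums -1.05, -1.16 and -1.73, limma adjusted p = 0.000993) and at -1.32 ± 0.312. PRX2, another peroxidase, gave -1.56, -1.53 and -1.08 and an estimate of -1.47 ± 0.376 (adjusted p = 0.0122), with its other probe at 0.45. CAT1, a catalase, gave -1.56, -0.65 and -1.15 and an estimate of -0.88 ± 0.270 (adjusted p = 0.0393). The 4 probes of APX1, an ascorbate peroxidase, lay at -0.77 to -0.04, and GR, glutathione reductase, stood at 0.03, none called. The call of the leading PRX2B probe held without each replicate in turn, and the other PRX2B probe lost its call without replicate 1 (-1.32, adjusted p = 0.157). PRX2 stood at -1.43 without replicate 1 (adjusted p = 0.228) and at -1.43 without replicate 2 (0.0774), and CAT1 at -0.73, -1.05 and -0.86 without replicates 1, 2 and 3 (0.440, 0.0953 and 0.0809). Without replicate 1 the list held 1 call, on the negative side. It held 4 negative calls and 1 positive call when the arrays of 1 h against 2 h water RNA and the dye term were left out.

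Sulfur metabolism supplies the cysteine of glutathione, and 1 of its 19 probes was called (5.26%, against 7.58% of all tested probes). CGS2, cystathionine gamma-synthase, which commits cysteine to methionine, gave sums of -2.18, -1.25 and -1.95 and an estimate of -1.78 ± 0.298 (limma adjusted p = 0.000128). The other 4 CGS2 probes stood at -0.18 to 0.66 and were not called, and without replicate 1 the leading probe stood at -1.59 (adjusted p = 0.0675). SIR, sulfite reductase, stood at 0.00 to 0.20 over 3 probes, and the O-acetylserine thiol-lyase probes at -0.29 to 1.17, none called. SAT1 was called at 0.93 ± 0.285 (adjusted p = 0.0390), a call lost without each of replicates 1, 2 and 3 (1.19, 0.84 and 0.77, adjusted p = 0.150, 0.182 and 0.208). Its symbol is used for different proteins, and it was taken off this list after its value was seen.

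The probes of light harvesting and photosystem I and of chlorophyll and haem metabolism gave no call at 2 h. They covered 4 and 7 genes, too few to speak for photosynthesis genes in general. Of all tested probes 7.58% were called. Of 11 light-harvesting and photosystem I probes 0 were called in limma (1 at an unadjusted p under 0.05), with a median of -0.28, and all 6 CAB3 probes, of a chlorophyll a/b binding protein, lay between -0.59 and -0.14 with adjusted p of 0.196 to 0.873. ELIP, an early light-induced protein, stood at 0.56. Of 10 probes of chlorophyll and haem metabolism 0 were called in limma (1 unadjusted), with a median of 0.09. In carbon metabolism CWINV, a cell wall invertase that splits sucrose, gave sums of -1.82, -1.54 and -0.31 and an estimate of -1.60 ± 0.319 (adjusted p = 0.00127). SUT1, a sucrose transporter, gave 1.42, 1.14 and 1.18 and an estimate of 1.18 ± 0.321 (adjusted p = 0.0186). The remaining 18 of 20 probes of starch, sucrose and PEP carboxylase genes were not called, and among them LOC547684 (BMY1), a beta-amylase, stood at 1.62. Without replicates 1 and 2 in turn CWINV stood at -1.32 and -1.49 (adjusted p = 0.0967 and 0.0794) and SUT1 at 1.00 and 1.28 (0.205 and 0.141).

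Flavonoid and phenylpropanoid probes, 84 of 23 genes, gave 5 calls (5.95%, against 7.58% of all tested probes), each on the negative side, where 2.84% of all tested probes were called. The list's median was -0.22. CHI1A, a chalcone isomerase that closes the flavanone ring, was called with 3 of 8 probes at -1.66 ± 0.363, -1.36 ± 0.362 and -0.86 ± 0.260. Its leading probe had 2 summed values, -1.67 and -1.76. 4CL4, a 4-coumarate:CoA ligase at the entry to the branch, gave -0.53, -1.17 and -0.51 and an estimate of -1.09 ± 0.301 (limma adjusted p = 0.0201). FLS1, flavonol synthase, gave -1.19, -0.51 and -1.98 and an estimate of -1.03 ± 0.296 (adjusted p = 0.0273).

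Uncalled probes of this pathway were not all on 1 side. The 7 probes of IFS2, an isoflavone synthase, lay at -1.25 to -0.57, and 8 of the 9 probes of F3H, flavanone 3-hydroxylase, at or below -0.20. The 11 CHS1 probes, for chalcone synthase, lay at -0.51 to 0.28, and 4 probes of IFR1, an isoflavone reductase, at 0.46 to 0.84. A pair of probes of a gene listed as LOC547659 (IFR1) stood at -0.0015 and 0.06. The leading CHI1A probe stood at -1.73 without replicate 2 (adjusted p = 0.0601). The CHI1A probe at -1.36 lost its call without replicates 1 and 2 (-1.32 and -1.19, 0.140 and 0.152), and that at -0.86 without replicates 1, 2 and 3 (-0.95, -0.90 and -0.72, 0.279, 0.165 and 0.0845). 4CL4 stood at -1.26 and -0.91 without replicates 1 and 2 (0.101 and 0.271), and FLS1 at -1.12 and -0.69 without replicates 1 and 3 (0.163 and 0.316). The list held 1 call without replicate 1 and 1 without replicate 2.

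The shares of called probes were 5.56% for fatty acid and galactolipid, 2.13% for lipoxygenase and jasmonate, 5.26% for defence and 10.3% for nitrogen. Of all tested probes 7.58% were called. FAD3C, an omega-3 fatty acid desaturase, gave sums of -1.94, -1.08 and -0.75 and an estimate of -1.18 ± 0.333 (limma adjusted p = 0.0236), the single call among 18 probes of fatty acid and galactolipid genes. LOX1.1, a lipoxygenase, was the single call among 47 lipoxygenase and jasmonate probes, at -0.88 ± 0.279 (adjusted p = 0.0491), close to the threshold and lost under 10 of 15 alternatives. KTI3, a Kunitz trypsin inhibitor, gave -1.02, -1.57 and -1.76 and an estimate of -1.25 ± 0.306 (adjusted p = 0.00874), the single call among 19 defence probes. The other 3 KTI3 probes lay at -0.41 to 0.42, with 2 of them on the positive side. GDH2, a glutamate dehydrogenase, gave 1.44, 1.48 and 1.88 and an estimate of 1.32 ± 0.325 (adjusted p = 0.00898). LOC547724 (GAD), glutamate decarboxylase, was called with 2 of 3 probes at 0.87 ± 0.259 and 1.08 ± 0.343, and the remaining probe stood at -0.87. Together these were the 3 calls among 29 nitrogen probes. RPL2, a ribosomal protein, stood at 0.78 ± 0.238 (adjusted p = 0.0400).

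Each of these calls was lost with some replicate left out. Without replicate 1 FAD3C stood at -0.78, LOX1.1 at -0.83, KTI3 at -1.55, GDH2 at 1.30, LOC547724 (GAD) at 0.65 and RPL2 at 0.64 (adjusted p = 0.462, 0.341, 0.0629, 0.140, 0.375 and 0.438). Without replicate 2 they stood at -1.37, -1.09, -1.06, 1.33, 0.93 and 0.89 (0.0716, 0.0652, 0.0970, 0.101, 0.200 and 0.153). Without replicate 3 the calls of LOX1.1 (-0.70, 0.254), KTI3 (-1.13, 0.0647) and RPL2 (0.81, 0.105) were lost as well. The further LOC547724 (GAD) probe stood at 0.93 and 1.07 without replicates 1 and 2 (0.433 and 0.185). The signs were the same in each case, with the named probes chosen for sums of 1 sign.

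Of the other lists, 14 probes of 14-3-3 proteins, 15 of the cell wall, 12 of vesicle coat and cytoskeleton and 11 of cysteine and metallo-proteases gave 0 calls in limma (1, 2, 2 and 2 at an unadjusted p under 0.05). Of all tested probes 7.58% were called. The medians of these lists were -0.26, -0.11, -0.22 and -0.42. COPZ1, a coatomer subunit, stood at -1.41 and VPE2, a vacuolar processing enzyme, at -1.42, the lowest values of their lists, both uncalled. Several probes per gene often parted: of 56 genes with several tested probes and at least 1 call, 4 had every probe called, 25 had all probes on 1 side and 31 had a probe on the other side, of which 2 had called probes on both sides. Without the 1 h against 2 h water arrays and the dye term 5 glutathione transferase probes were again called, all positive, with 5 negative flavonoid calls and, among transcription factors, 4 positive calls and 1 negative. The calls of 4CL4, CG-1, DREB1, NAC6, RPL2, SCAM-1 and LOX1.1 were lost then, with estimates on the same side.

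**Figure D3:**
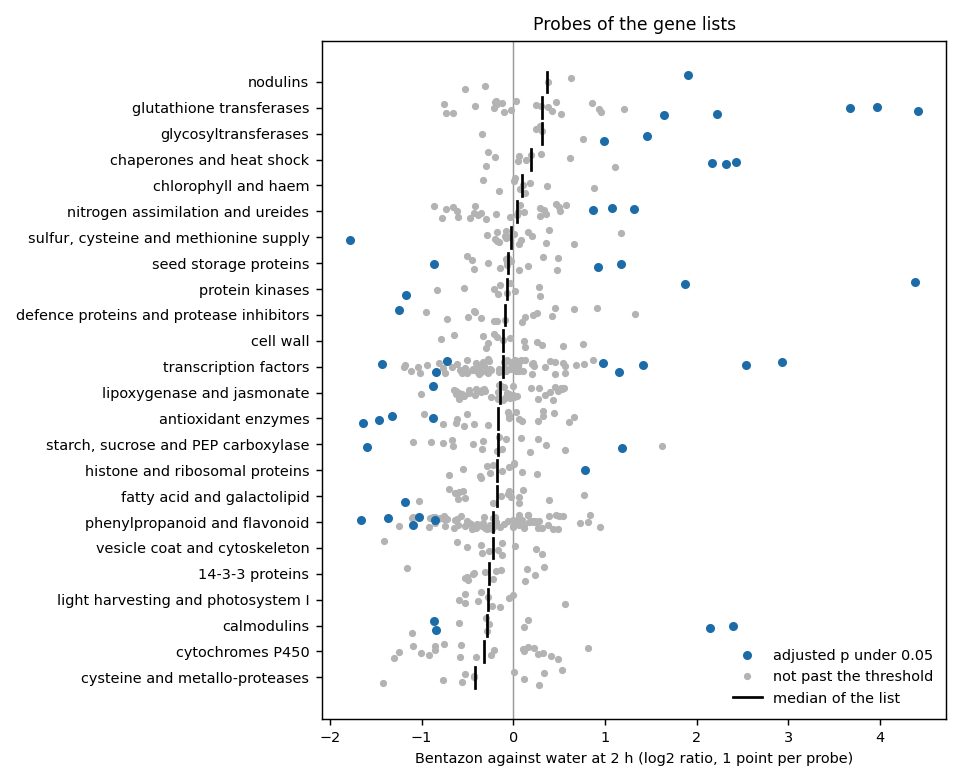
Estimates of bentazon against water at 2 h (log2 ratio, x axis) for the probes of 24 gene lists, ordered by the median of the list (black bar). Blue points passed an adjusted p of 0.05 and grey points did not; the 5 called glutathione transferase probes lie at 1.64 to 4.41, and all called antioxidant and flavonoid probes lie below 0.

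The effect was next set beside the same comparison at the other times, each against water of its own time. Probes called numbered 571 at 1 h (3.35%), 2287 at 4 h (13.4%) and 2774 at 8 h (16.3%). Precision differed: at 1 and 8 h a single array held both RNAs, at 2 and 4 h none did, and the median SE was 0.212, 0.287, 0.287 and 0.211 in time order. Of the 1293 probes called at 2 h, 444 were called on the same side at 1 h, which is 34.3% of the 2 h list and 77.8% of the 1 h list. At 4 h 773 were called on the same side (59.8% of the 2 h list and 33.8% of the 4 h list) and 1 on the other. At 8 h 351 were on the same side (27.2% and 12.7%) and 19 on the other. These estimates share arrays of the loop and are not independent.

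The probes called on the positive side at 2 h, which were selected on that value, had medians of 0.80, 1.49, 1.22 and 0.28 at 1, 2, 4 and 8 h. Those called on the negative side had medians of -0.45, -1.12, -0.91 and -0.49. The 82 probes at 3 log2 units or beyond had medians of 2.70, 3.73, 3.73 and 1.14. LOC548029 (GSTU59) stood at 2.34, 3.68, 3.35 and 0.80 at 1, 2, 4 and 8 h, and was called at all but 8 h. BZIP126 ran at 2.15, 2.93, 2.60 and 0.55 and WRKY27 at 1.68, 2.54, 2.44 and 0.46, also without a call at 8 h. The leading GSTF5 probe was called at every time, at 1.38, 2.22, 2.00 and 0.81. The further GSTF5 probe stood at 0.57, 1.64, 1.35 and -0.09, called at 2 and 4 h, and the remaining one was called at no time. For each named gene the values over time are those of its leading probe.

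Some genes were called at 2 h and not at 1 h. SCAM-3 stood at 0.62, 2.40, 1.39 and -0.20 in time order, called at 2 and 4 h. CDPK-GAMMA stood at 0.63, 1.87, 1.81 and 0.57, called at the same times. SCAM-1, GDH2 and CGS2 were called at 2 h alone, CGS2 at -0.71, -1.78, -0.61 and 0.32 and GDH2 at 0.58, 1.32, 0.23 and 0.07. GY1 stood at 1.25, 1.17, 0.94 and -0.04, called at all but 8 h. SUT1 was called positive at 2 h (1.18) and negative at 8 h (-0.76), with 0.01 at 1 h and 0.34 at 4 h. PK3 was called at 2, 4 and 8 h, at -1.78, -2.73 and -2.27.

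The changes between times were tested directly. Between 1 and 2 h 0 of 17062 probes passed in limma (0%), with 1161 at an unadjusted p under 0.05 and a median SE of the difference of 0.333. Estimates were larger in size at 2 h than at 1 h for 41 of the 42 named genes, which were themselves chosen by their 2 h values. The difference was 1.77 ± 0.364 for SCAM-3 (limma adjusted p = 0.296) and 1.86 ± 0.682 for PDR12 (0.553). Between 2 and 4 h 1 probe passed (0.00586%), with 1561 at an unadjusted p under 0.05. It was the unnamed probe Gm01710cDNA18kA, picked here for passing, which stood at 0.76 at 2 h and at -1.16 at 4 h, a difference of -1.92 ± 0.267 (adjusted p = 0.000731). Its call was lost without replicate 1 (-1.87, adjusted p = 0.452) and without replicate 3 (-1.88, 0.187). With array weights 9 probes passed between 1 and 2 h and 137 between 2 and 4 h. A gene called at one time and not at another is therefore not shown to differ between those times.

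**Figure D4:**
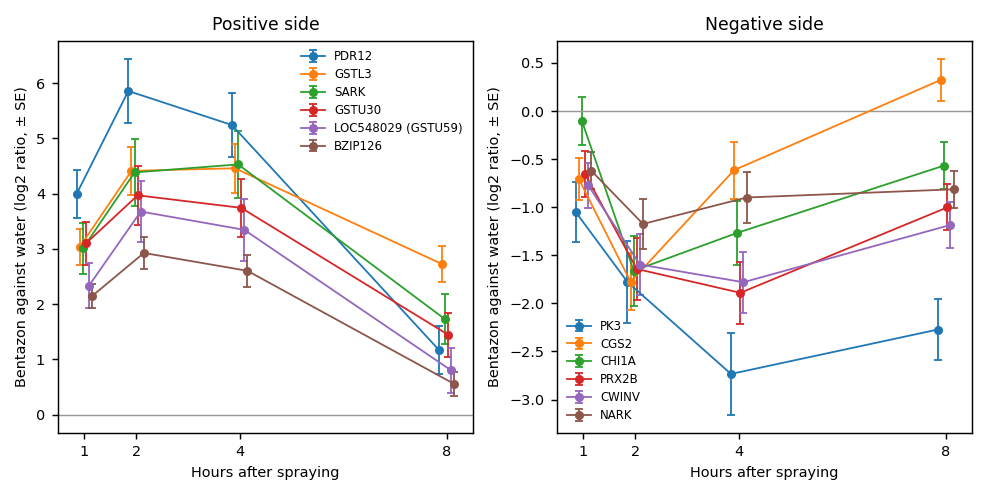
Estimates of bentazon against water (log2 ratio ± SE, y axis) at 1, 2, 4 and 8 h after spraying (x axis) for 6 named genes on the positive side (left) and 6 on the negative side (right). The positive genes stand highest at 2 or 4 h and lower at 8 h, with PDR12 at 5.86 at 2 h, and CGS2 is lowest at 2 h, at -1.78.

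Atrazine, which blocks the same site and belongs to a different chemical class (a triazine, where bentazon is a benzothiadiazinone), was measured against the same water RNA at 2 h. Both estimates share these water samples and the water against atrazine arrays, so they are not independent. The values are therefore given side by side. Atrazine against water gave 894 calls (5.24%), 436 positive (2.56%) and 458 negative (2.68%). The difference between the herbicides, estimated like the others from the whole loop, was called for 1641 probes (9.62%), 959 positive (5.62%) and 682 negative (4%), and for 784 of them (4.6% of those tested) it was at least 1 log2 unit. The 3 arrays that held both herbicides' RNAs, taken alone, gave 1430 calls, of which 1162 were among the 1641. Doses are given as 1 range for both, so the doses cannot be said to match.

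The leading probes of the 6 named genes of the ABC transporter, glutathione transferase and glycosyltransferase lists were not called under atrazine at 2 h. PDR12 stood at 0.04 ± 0.436 under atrazine and 5.86 under bentazon, and GSTL3 at 0.20 ± 0.326 and 4.41. GSTU30 stood at 0.65 under atrazine, LOC548029 (GSTU59) at 0.56, GSTF5 at 0.33 and UGT1 at 0.44. The differences between the herbicides were called for all 6, at 5.82 ± 0.436 for PDR12 and 4.21 ± 0.326 for GSTL3 (limma adjusted p = 6.61e-11 and 1.04e-10). Among the 27 glutathione transferase probes 6 differed between the herbicides on the positive side and 0 on the negative. That is 22.2%, against 9.62% of all tested probes. Against water atrazine gave 0 positive and 2 negative calls in this list (7.41%, against 5.24% of all tested probes). Of the 7 glycosyltransferase probes 2 were called positive under atrazine (28.6%, against 5.24% of all tested probes). They were the further UGT1 probe at 0.77 and a probe of LOC732565 (SGT3) at 1.01 (limma adjusted p = 0.0279 and 0.0474). The further UGT1 probe differed between the herbicides by 0.22 (0.609), and the leading UGT1 probe held the list's single called difference.

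Other genes were called under both herbicides. SARK stood at 1.57 under atrazine, PM34 at 1.44 and LOC547791 (PK) at 1.43, and each was still larger under bentazon by a called difference, of 2.82, 1.53 and 1.14. The leading BZIP126 probe stood at 0.71 under atrazine, called, with a difference of 2.22 ± 0.212, and the remaining one differed to the other side, by -0.54 ± 0.147 (limma adjusted p = 0.0162). On the negative side PK3 stood at -1.60 under atrazine and CWINV at -1.36, both called. Their differences between the herbicides were -0.18 ± 0.314 and -0.24 ± 0.236 (adjusted p = 0.805 and 0.615), which does not show that they are equal. In both genes most of the bentazon sum came from the water against atrazine arrays. These also enter the atrazine estimate, so the calls under the herbicides are not independent. NARK, KTI3 and SCAM-2 were called under atrazine too, at -0.82, -0.77 and -0.76, again without a called difference.

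CHI1A stood at 0.03 ± 0.245 under atrazine against -1.66 under bentazon, and FLS1 at -0.10 against -1.03, and both differences were called, at -1.69 ± 0.295 and -0.93 ± 0.219. Of the 84 flavonoid and phenylpropanoid probes 9 differed between the herbicides (10.7%, near the 9.62% of all tested probes), each on the negative side, where 4% of all tested probes were called. SUT1 stood at -0.53 under atrazine, without a call, and at 1.18 under bentazon, a difference of 1.71 ± 0.238. The probes called negative at 2 h under bentazon, selected on that value, had a median of -0.62 under atrazine, and 202 of 484 were called negative there. Those called positive had a median of 0.40 under atrazine, where 143 of 809 were called positive and 1 negative. Of all tested probes 2.68% were called negative under atrazine and 2.56% positive. Both estimates use the water against atrazine arrays, so this overlap is not one of independent estimates. The 82 probes at 3 log2 units or beyond had a median of 0.66 under atrazine. Of these, 77 differed between the herbicides, against 9.62% of all tested probes.

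**Figure D5:**
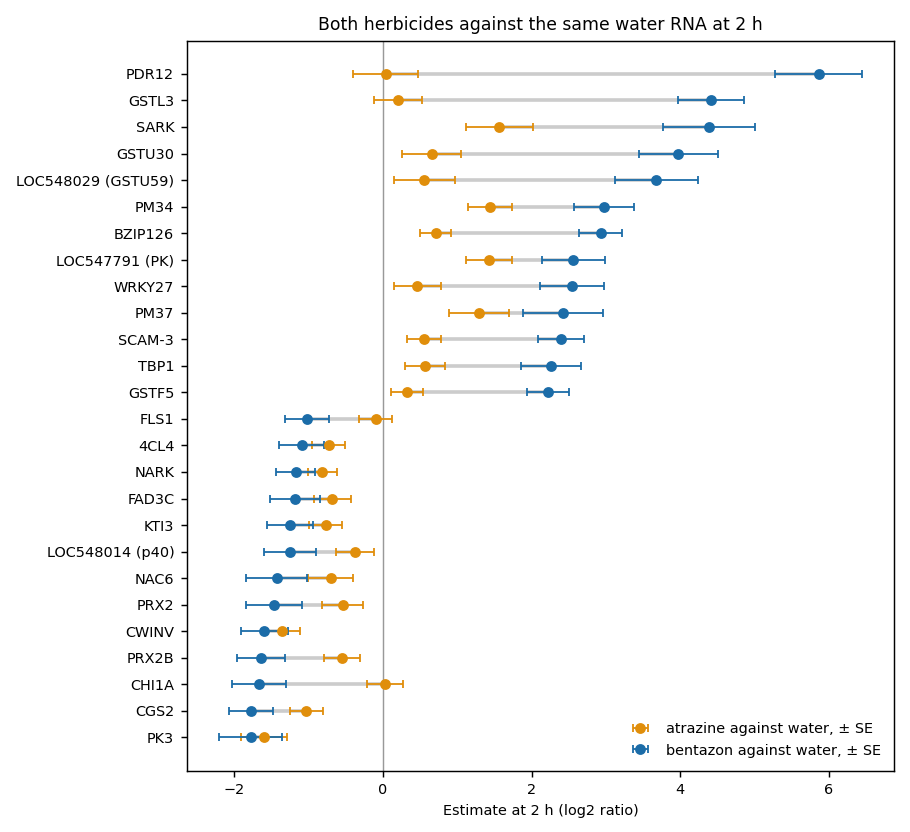
Estimates at 2 h (log2 ratio ± SE, x axis) of bentazon against water (blue) and atrazine against water (orange) for the 26 named genes with the largest bentazon estimates; grey bars join the values of a gene. PDR12 and GSTL3 lie near 0 under atrazine and at 5.86 and 4.41 under bentazon, while the orange and blue points of PK3 lie close together.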

How the data were processed

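Log ratios, taken as log2, were used as deposited by the authors, 1 per probe and array, on 36 dual-channel cDNA arrays in a loop of 12 hybridisation types with 3 replicates. Per the labels' protocols, RNA extraction used Trizol and labelling was indirect, by aminoallyl-dUTP, with Cy3 on the RNA named first in a title. Not given in the sources used here are the background correction, the normalization, the log base, which channel is the numerator and the handling of the technical repeats and dye swaps that the design mentions. No intensities were used, so signal over background is not known, and precision is limited by the number of arrays.

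Probes with at least 2 of 3 values in every hybridisation type (17062) were fitted by least squares with 11 RNA differences and 1 dye term. Moderated variances came from limma 3.58.1 (R 4.3.3), with 24 degrees of freedom from residuals and 7.56 from the prior, and the code was tested on simulated data. Figures used matplotlib 3.10.9 in Python 3.11.15. The probe annotation gave 1 gene for 1158 probes (527 genes, 523 of them found by gene ID in the Glycine_max_v4.0 table, which gave symbols) and several for 13. Named genes are called members with a name and summed values of 1 sign, 1 probe each: the 13 largest per side and up to 4 called members of each list. Lists were matched by symbol alone, since the annotation holds no descriptions, and a few genes stand on more than 1 list. Members, lists and tests were chosen with earlier results of these data known. Arrays that share a replicate number and no RNA had deviations with a median correlation of 0.0109 over 162 pairs, from -0.409 to 0.431. An effect common to both RNAs of an array cancels in its ratio, so this cannot decide whether the numbers pair samples. The model did not pair them. Arrays that share a replicate number and an RNA had a median correlation of -0.153. For bentazon against water 15 alternatives were run: each replicate left out, no dye term, a replicate block, arrays scaled or centred on their median, array weights, a robust variance prior, generalised least squares, 2 arrays per replicate, each loop alone, no filter on missing values, probes complete on all arrays, and no 1 h against 2 h water arrays. Sequences and promoter motifs were not analysed here.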

Additional observations from a re-analysis of the deposited data

Results flagged for a closer look

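For 27 of the 42 named genes the effects of bentazon and of atrazine at 2 h differed in a test of the difference itself (limma, adjusted over all 17062 probes), given here in log2 units as bentazon minus atrazine. These genes were named for their bentazon values, which share the bentazon RNA with the difference. PDR12 differed by 5.82, GSTL3 by 4.21, GSTU30 by 3.32, LOC548029 (GSTU59) by 3.12 and GSTF5 by 1.90, and the glycosyltransferase gene UGT1 by 1.03. Among signalling genes and regulators SARK differed by 2.82, BZIP126 by 2.22, WRKY27 by 2.08, SCAM-3 by 1.84, SCAM-1 by 1.64 and CDPK-GAMMA by 1.58. ENOD40B differed by 1.92, SUT1 by 1.71, TBP1 by 1.70, PM34 by 1.53, LOC547791 (PK) by 1.14, GDH2 by 0.83 and GY1 by 0.70. The values are those of 1 probe per gene: the remaining BZIP126 probe differed by -0.54, a call on the other side (adjusted p = 0.0162), and the further called UGT1 probe by 0.22, not called. On the negative side CHI1A differed by -1.69, PRX2B by -1.09, FLS1 by -0.93, PRX2 by -0.93, DREB1 by -0.92, LOC548014 (p40) by -0.87, CGS2 by -0.75 and CG-1 by -0.59. Further probes of 4CL4 (-1.09 and -0.94), CAT1 (-0.70) and PM37 (0.92), genes outside the 27, also had called differences. With 3 replicates per group, samples far from their group were not tested for.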

How the results depend on the processing

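Of the 42 named genes 0 changed side under any of the alternatives run. The rule had chosen them as called and with sums of 1 sign, so a change of side was unlikely from the start. The calls of 12 leading probes were kept throughout: PDR12, GSTL3, SARK, GSTU30, LOC548029 (GSTU59), PM34, BZIP126, LOC547791 (PK), WRKY27, SCAM-3, GSTF5 and PRX2B. Leaving out replicate 1, 2 or 3 took away 29, 21 and 11 of the 42 calls, and those fits test the same probes with fewer arrays. Bentazon against water at 2 h gave 1293 calls, and 308 to 989 with 1 replicate left out (308 without replicate 1, 621 without replicate 2). It gave 2026 with array weights, 2054 from the 2 arrays per replicate alone and 2072 with each loop solved alone, and the cause was not tested. The positive share of calls was 62.6%, and 55.0%, 55.1% and 55.8% under these 3 alternatives, and 69.8% with arrays centred on their median (890 positive and 385 negative). The other alternatives gave 1179 to 1759 calls. The 2 h against 1 h difference gave 0 calls, and 9 with array weights. With 1 replicate left out it gave 0 in limma, with 712, 718 and 1607 probes at an unadjusted p under 0.05. The 4 h against 2 h difference gave 1 call, 2 with scaled arrays, 137 with array weights and 0 to 8 with 1 replicate left out. Bentazon against atrazine gave 1641 calls, and 519 to 1452 with 1 replicate left out (519 without replicate 1, 808 without replicate 2). A replicate block was also run, although the numbers are not shown to pair the samples. With it bentazon against water gave 1217 calls, bentazon against atrazine 1568, and the differences between times 0 and 1.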

Other observations

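A few called genes outside the lists were looked at after their values were seen, and no test is drawn from their choice. Of all tested probes 7.58% were called. PIP2-6, an aquaporin of the plasma membrane, had 3 of 4 probes called on the positive side, at 1.62 ± 0.299, 1.53 ± 0.271 and 1.17 ± 0.299, and these stood at 1.13, 0.85 and 0.73 under atrazine, each called as well. Its remaining probe stood at -0.52 without a call. The PIP2-6 probe at 1.17 lost its call without replicate 1 (1.16, limma adjusted p = 0.175) and without replicate 3 (1.02, 0.0860). IDH1, an isocitrate dehydrogenase, stood at 0.95 ± 0.244 under bentazon and at -0.17 under atrazine, with a difference of 1.12 (limma adjusted p = 5.62e-05). P5CR, pyrroline-5-carboxylate reductase of proline synthesis, stood at 0.82 ± 0.233 and at 0.06 under atrazine, with a difference of 0.76 (adjusted p = 0.00331). Against water IDH1 lost its call without replicate 1 (0.92, 0.206) and 2 (0.78, 0.222), and P5CR without replicates 1, 2 and 3 (0.88, 0.72 and 0.84, with adjusted p of 0.243, 0.153 and 0.0991).

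Some genes known here by a placeholder alone had many called probes, where 7.58% of all tested probes were called. These genes too were looked at after their values were seen, and no test is drawn from the counts. LOC547643 had 6 of 10 probes called, all on the negative side, at -1.99 to -1.55, and the other 4 stood at -0.66 to -0.38. Under atrazine the same 6 probes stood at -1.70 to -1.37, each called, and their differences between the herbicides, of -0.39 to -0.12, were not called. Without replicate 1, 3 of the 6 lost their calls, at -1.62, -1.53 and -1.53 (limma adjusted p = 0.141, 0.159 and 0.0732). LOC547734 had 3 of 6 probes called on the positive side, at 2.92, 2.77 and 1.55, and the other 3 stood at -0.53 to -0.15 without a call. Under atrazine its called probes stood at 1.27, 1.13 and 0.59, and those at 1.27 and 1.13 were called there too. Each of their differences between the herbicides was called. LOC547634 had all 3 probes called, at 2.20, 1.67 and 1.57, against 0.37, 0.38 and 0.07 under atrazine, and each difference was called. The LOC547634 probes at 1.67 and 1.57 lost their calls without replicate 1 (1.42 and 1.43, adjusted p = 0.272 and 0.267), and that at 1.57 without replicate 2 (1.52, 0.110).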
